A study of Sus scrofa with 70 samples.

Results

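Described here are genes and transcripts whose level differed between the Diannan small-ear pig (DSE) and the Banna mini-pig inbred line (BMI) in the same direction in all 5 reproductive glands. The members were found from the RNA-seq table of TPM values (transcript levels scaled to each library's total and corrected for transcript length). For every gene and transcript, the mean of log2(TPM + 1) in DSE minus that in BMI was taken within each gland, and a member had the same sign in all of them. The glands are the testis (Tes), the epididymis (Epi), the bulbourethral gland (BG), the prostate (PG) and the vesicular gland (VG). This held for 1954 of 35552 genes and 6971 of 133722 transcripts. Of these, 1384 genes (6.99% of those tested) and 4659 transcripts (7.21%) passed the filter of at least 1 TPM in at least 3 libraries, and the other 570 genes and 2312 transcripts were too low to test. A member was called when limma gave, in addition, an adjusted p below 0.05 for the breed term with gland as a block.

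Both groups were 12-month-old adult boars. BMI is a closely inbred line that was bred from DSE pigs, and each breed and gland had 3 RNA-seq libraries, 15 per breed. The series also holds 10 PacBio Iso-seq libraries, 1 per breed and gland, with 231413 to 458697 full-length reads each, and 30 small RNA libraries that were not used here. How many boars of each breed gave the glands was not stated, so p-values measure the spread between these libraries. Because each breed stands for its own animals, inheritance, rearing and handling cannot be told apart in any difference between the breeds. In bulk tissue, fewer cells of a type and less RNA per cell cannot be told apart either.

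The labelled glands matched their markers where this could be checked. The summed level of 9 spermatid markers was 26108 to 119537 TPM in the 6 testis libraries and 3.73 to 1113 TPM in the others, and epithelial markers were 18.2 to 44.7 TPM in testis and 1167 to 3194 TPM elsewhere. Each RNA-seq library listed 55309 to 76938 transcripts above 0, and TPM keeps no depth; the read totals that the study states per library were not used here. With TPM as deposited, the median difference over all tested genes was -0.27 in VG and 0.23 in PG on the log2 scale, and both were 0 after scaling by size factors.

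The 5 glands differ in origin and task. The testis makes sperm and androgens, the epididymis matures sperm, and the 3 accessory glands secrete the fluid of the ejaculate. A breed difference in a transcript's level can be shared by tissues or limited to some of them, whatever its source. For isoforms, the reference matters. Short reads are assigned to transcript sequences built on a single assembled genome, and a breed whose sequence departs from that genome can have its reads assigned to another transcript.

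In all, 253 of 19796 tested genes were called with a single sign in all 5 glands, 1.28% of those tested. Of these, 115 genes were higher in DSE (0.581% of tested genes) and 138 were lower (0.697%). At the transcript level, 861 of 64661 were called (1.33%), 416 higher (0.643%) and 445 lower (0.688%). Without the condition on sign, 289 genes (1.46%) and 1012 transcripts (1.57%) passed the adjusted p, of which 36 genes and 151 transcripts changed sign between glands and are not members. The split by direction was not stable: without the library of lowest RNA integrity in each gland, 304 genes were called, of which 66.4% were higher in DSE against 45.5% with all libraries. Of these 5 libraries 4 were DSE and 1 was BMI, so low integrity went with breed in part, and its part in the results was not tested. When the values of each breed and replicate number were first averaged over the glands, leaving 3 values per breed, 37 genes (26 higher and 11 lower in DSE) and 138 transcripts were called, and 17 of the 37 genes and transcripts named by rule kept their call. Of the 24 named genes 17 lost it, namely 5.8S rRNA, INMT, RECQL, ND6, FAM174B, RELL1, DMKN, FBXO17, SEL1L3, WDR54, ANKRD55, NCCRP1, DUSP23, ALS2CL, CCDC158, SORCS2 and WNT5B, with adjusted p from 0.0712 to 0.385 (limma). Leaving out all libraries of 1 number gave 72 to 128 genes and 319 to 452 transcripts. With size factors 405 genes were called, of which 225 were among the 253, and asking for at least 1 TPM in at least 15 libraries left 148 genes and 405 transcripts.

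The called differences were mostly modest. The median absolute difference of the called genes was 0.74 on the log2(TPM + 1) scale, beside 0.13 for all tested genes, and 61 of the 253 reached 1 (0.308% of tested genes). Among transcripts 304 did (0.47%). Among the called genes, 122 (48.2%) had a mean level under 5 TPM and 131 (51.8%) had no gene symbol, beside 40.5% and 29.4% of all tested genes. The 15 libraries of a breed spanned organs with very different levels, so a stricter description is whether the 3 DSE and the 3 BMI libraries were apart in every gland. This held for 36 genes (0.182% of those tested), 23 higher and 13 lower in DSE, and 120 transcripts (0.186%), and all of them had been called. Of the 36 genes 9 had a symbol (25.0%), beside 70.6% of all tested genes.

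TYR encodes tyrosinase, the enzyme that limits the making of melanin pigment, and was the named gene with the largest deficit in DSE. In DSE testis it was at 5.1, 5.14 and 6.73 TPM, and in BMI testis at 19.9, 20.2 and 21.02 TPM. In the other 4 glands DSE was listed at 0 in every library but a single BG library at 0.152 TPM, whereas BMI ranged from 0.629 to 10.04 TPM. DSE and BMI thus did not overlap in any gland. The difference over all glands was -1.88 ± 0.21 (SE) on the log2(TPM + 1) scale (limma, 15 libraries per breed, adjusted p = 1.39e-06), and it ranged from -2.25 in Epi to -1.61 in PG. TYR lies on chromosome 9 (Sscrofa11.1, 22517047 to 22604370, plus strand), and its difference was carried by a single Iso-seq-derived transcript, PB.19604.1, at -1.90. The Iso-seq libraries held 1 full-length read of TYR in DSE and 5 in BMI, too few to compare.

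**Figure D1:**
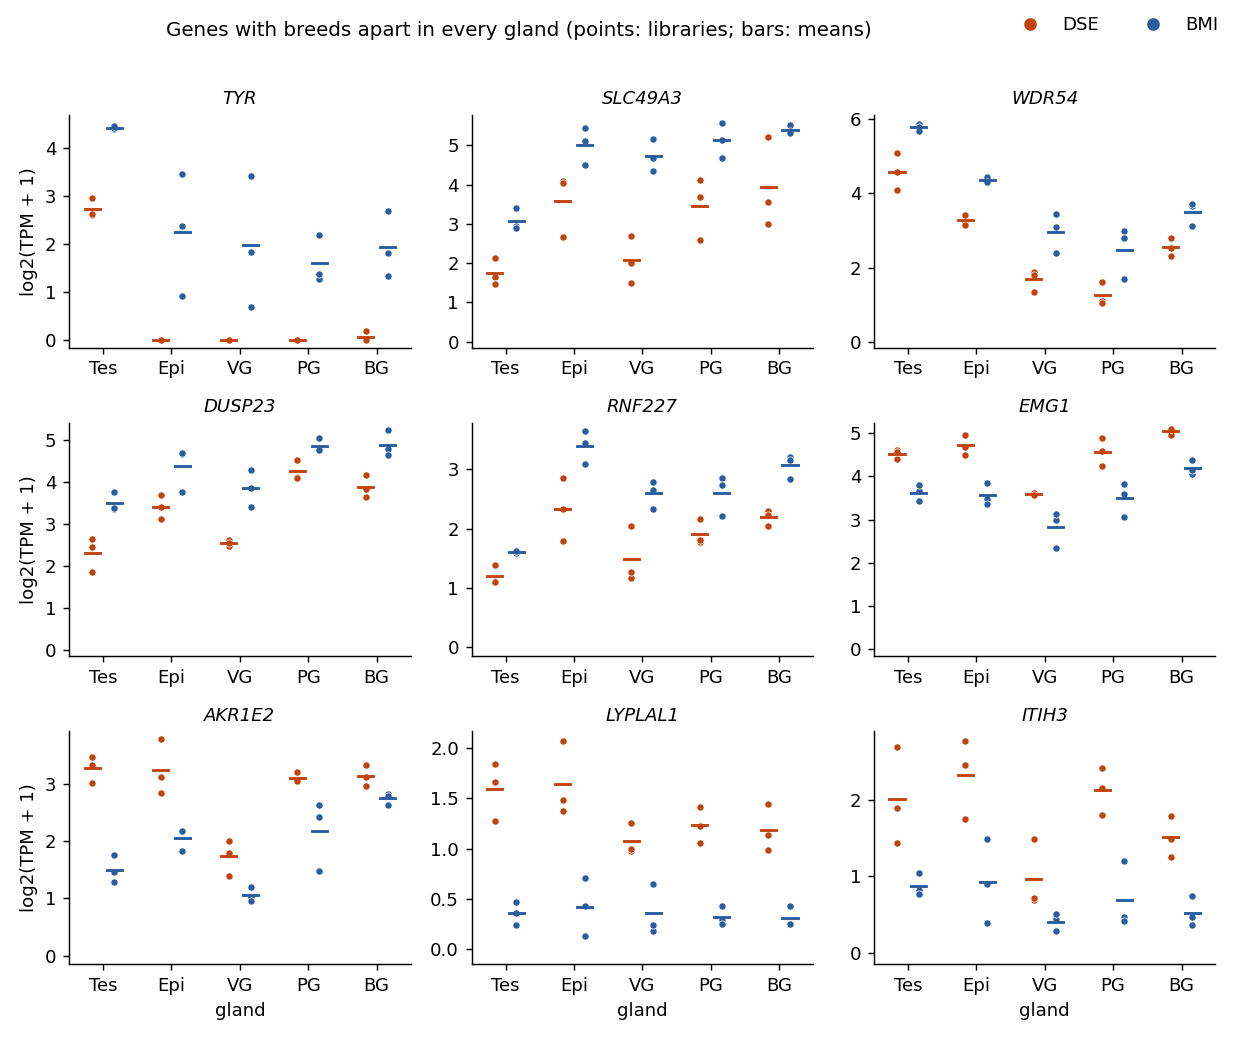
Levels of the 9 genes with a symbol whose DSE (orange) and BMI (blue) libraries were apart in every gland; the vertical axis is log2(TPM + 1), each point is a library and each bar the mean of 3. TYR in DSE stands near 0 outside testis, while EMG1 in DSE lies above BMI by 0.77 to 1.16 in every gland.

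SLC49A3, a membrane transporter family member on chromosome 8 (120094 to 128425), had the next largest deficit in DSE among called genes with a symbol. It ranged from 1.8 to 36.3 TPM in DSE with a median of 5.45 TPM, and from 6.43 to 46.6 TPM in BMI with a median of 33.4 TPM. Its difference was -1.71 ± 0.22 (SE; adjusted p = 9.86e-06), largest in VG at -2.66. Iso-seq held 9 full-length reads of it in DSE and 47 in BMI, fewer in DSE in 4 glands and 2 in each breed in PG. DUSP23, a dual-specificity phosphatase, had a median of 9.63 TPM in DSE and 23.96 TPM in BMI (difference -1.02 ± 0.12, adjusted p = 3.64e-06, or 0.0946 with 1 value per breed and number). RNF227, a ring finger protein chosen for mention after its values were seen, had medians of 2.49 and 5.93 TPM.

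WDR54, a WD-repeat protein, and C2orf81 lie head to head on chromosome 3 and were both lower in DSE. WDR54 in testis was at 22.7, 16.1 and 33.2 TPM in DSE and 57.6, 54.7 and 50.3 TPM in BMI. In PG, where it was lowest, it was at 2.08, 1.17 and 1.08 TPM in DSE and 6.89, 5.91 and 2.23 TPM in BMI. The groups were apart in each gland, and the difference was steady across them, from -1.29 in VG to -0.95 in BG (overall -1.15 ± 0.13, adjusted p = 1.39e-06, or 0.0712 with 1 value per breed and number). C2orf81, named here after its values were seen, differed by -0.62 ± 0.15 (adjusted p = 0.0259), with the groups apart in 2 glands. The 2 gene models overlap by a few kilobases, and whether the counting used strand is not given in the sources used here, so reads of the pair may be shared. The stretch between the starts of their Ensembl transcripts, chr3:68618391-68618503 on the plus strand, is shown because both members read away from it.
WDR54-C2orf81: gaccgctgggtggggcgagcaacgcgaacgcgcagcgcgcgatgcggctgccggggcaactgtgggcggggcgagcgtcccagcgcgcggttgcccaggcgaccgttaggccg
It has 113 bases, of which 77.0% are G or C, and holds 20 CG dinucleotides. This is the sequence of the reference genome and not that of either breed.

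OCIAD2, a protein of mitochondria and endosomes, was lower in DSE with a difference of -1.01 ± 0.13 (adjusted p = 2.26e-05) and groups apart in 4 glands. In BG it was at 0.274, 0.351 and 0.454 TPM in DSE and 2.67, 3.001 and 3.63 TPM in BMI. ANKRD55 differed by -1.12 ± 0.27 (adjusted p = 0.025), but its size varied with the gland. PG showed 0.581, 0.572 and 0.65 TPM in DSE against 19.9, 4.39 and 17.1 TPM in BMI, whereas VG stood under 0.4 TPM in every library and differed by -0.09. SEL1L3 showed a comparable unevenness, with -3.05 in VG, -2.93 in BG and -0.17 in testis, although the breed by gland interaction of SEL1L3 did not pass (limma, adjusted p = 0.0617). The remaining low members by rule were NCCRP1 (-1.04), ALS2CL (-0.996), CCDC158 (-0.96), SORCS2, a receptor that binds neurotrophins (-0.95), and WNT5B, a Wnt ligand (-0.93). SEL1L3, ANKRD55, NCCRP1, ALS2CL, SORCS2 and WNT5B lost the call without the lowest-integrity libraries, with adjusted p from 0.0545 to 0.182 for these 6.

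Among the genes higher in DSE, EMG1, a methyltransferase needed to build the small ribosomal subunit, had a like difference in every gland. Testis held 20.1, 23.4 and 22.8 TPM in DSE and 11.7, 9.75 and 12.9 TPM in BMI, and BG held 30.3, 33.2 and 33.1 TPM in DSE and 15.7, 16.7 and 19.97 TPM in BMI. No gland overlapped, and the overall difference was 0.95 ± 0.10 (adjusted p = 2.83e-07), with 0.77 in VG as the smallest and 1.16 in Epi as the largest. The 9 full-length reads in DSE and 10 in BMI gave no direction for EMG1.

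AKR1E2 encodes an aldo-keto reductase. Its testis libraries were at 7.08, 10.04 and 8.98 TPM in DSE and 1.45, 1.74 and 2.38 TPM in BMI, and its BG libraries at 6.81, 9.07 and 7.63 TPM in DSE and 6.05, 5.19 and 5.93 TPM in BMI. The groups were apart in both, but the gap was wider in testis (1.77) than in BG (0.39), and the interaction of AKR1E2 did not pass (adjusted p = 0.173). LYPLAL1, a lysophospholipase-like enzyme, was low in both breeds, from 0.972 to 3.2 TPM in DSE and 0.0959 to 0.632 TPM in BMI. Its difference was 0.99 ± 0.10 (adjusted p = 8.47e-08). ITIH3, a heavy chain of the inter-alpha-trypsin inhibitors that bind hyaluronan, ranged from 0.614 to 5.84 TPM in DSE and 0.218 to 1.81 TPM in BMI, with a difference of 1.10 ± 0.15 (adjusted p = 2.76e-05).

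INMT, an N-methyltransferase of indole amines, had the largest difference in VG, at 67.8, 142 and 159 TPM in DSE against 20.6, 7.86 and 7.59 TPM in BMI. In BG it was at 1.68, 1.06 and 8.13 TPM in DSE and 1.27, 2.86 and 2.37 TPM in BMI, so the groups overlapped there. Its overall difference was 1.49 ± 0.33 (adjusted p = 0.0134, or 0.105 with 1 value per breed and number). RECQL, a DNA helicase, differed by 1.29 ± 0.23 (adjusted p = 0.00169) and overlapped in 3 glands. The BMI library numbered 1 was the highest of its breed in every gland, and with 1 value per breed and number RECQL lost its call (limma, adjusted p = 0.217). Its Iso-seq reads were more frequent in DSE in all 5 glands, with 117 reads in DSE and 28 in BMI. FAM174B and RELL1 were also higher in the DSE Iso-seq library of each gland as a share of its full-length reads. RELL1 had 318 full-length reads in DSE and 153 in BMI, and FAM174B had 285 and 277, or 177 and 149 CPM (reads scaled to each breed's total of full-length reads). DMKN (0.98) and FBXO17 (0.95) complete the named protein-coding genes of nuclear chromosomes that were higher.

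The list by rule also holds members of other kinds. ND6, the complex I subunit encoded on the mitochondrial strand opposite to most genes, differed by 1.11 ± 0.26 (adjusted p = 0.0254), a call lost with 1 value per breed and number (adjusted p = 0.321). ND6 ranged from 647 to 2531 TPM in DSE and 146 to 1438 TPM in BMI, with the groups apart in 1 gland. Its gene model runs from 12935 to 15338 on the minus strand of the mitochondrial genome. Whether the counting used strand is not given in the sources used here, so reads of genes on the other strand may be included. ND6 was the 1 called member among 13 mitochondrially encoded protein genes. The annotated 5.8S ribosomal RNA on an unplaced scaffold had the largest named difference (3.90 ± 1.03, adjusted p = 0.0485). Over all glands its libraries went from 0 to 575 TPM in DSE and 0 to 261 TPM in BMI, with the groups apart in 2 glands. Its call was lost with duplicateCorrelation (adjusted p = 0.0517), without the lowest-integrity libraries (0.0541) and with 1 value per breed and number (0.166). How much of this RNA remains depends on the selection of RNA for the library. For that step the labels name depletion of ribosomal RNA and the study's methods name poly-T beads, so what this value means is uncertain, and the part of that step was not tested.

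**Figure D2:**
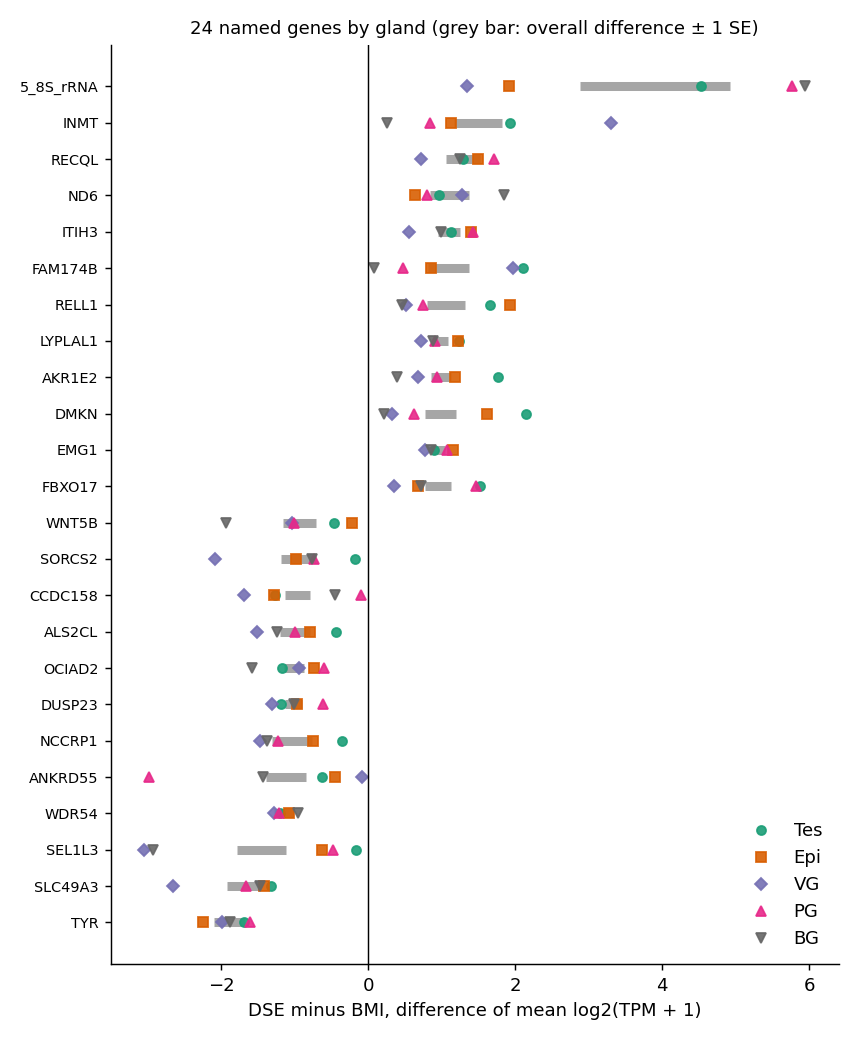
Difference DSE minus BMI of mean log2(TPM + 1) in each gland (symbols) for the 12 highest and 12 lowest named genes, with the overall estimate ± 1 SE as a grey bar. The differences of WDR54 lie between -1.29 and -0.95 in all glands, whereas ANKRD55 runs from -0.09 in VG to -2.99 in PG.

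Several of the largest differences belonged to genes without a symbol, and these are named after their values were seen. A read-through gene model in the class I region of the swine major histocompatibility complex (chromosome 7, 22869147 to 22942727, over the RefSeq genes SLA-1 and SLA-2) was at 20.1 to 131 TPM in DSE and 0 to 14.1 TPM in BMI, with a difference of 3.99 and no overlap in any gland. Iso-seq held 0 full-length reads of this model in DSE and 7 in BMI, from 3 glands, which is the opposite direction. ENSSSCG00000001458, which lies on a RefSeq class II DRB1-like beta chain gene (chromosome 7, 24993912 to 25001567), was at 1.99 to 29.6 TPM in DSE and at or under 0.495 TPM in BMI, a difference of 3.27. A model covering C4BPA, a regulator of complement, on chromosome 9 (67764935 to 67827640) was listed at 0 in all 15 BMI libraries and at 0.548 to 30.99 TPM in DSE. Class I and class II genes are among the most variable of the genome, and their near-identical copies share reads, so how these TPM values divide between copies is uncertain.

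The transcript PB.17407.28 of the class I gene ENSSSCG00000052432 shows this limit. In RNA-seq it was at 32.5 to 587 TPM in DSE and at 0 in 12 of 15 BMI libraries, with at most 3.38 TPM, a difference of 7.12 ± 0.29 (adjusted p = 1.21e-15). In Iso-seq, the same isoform had 315 full-length reads in DSE and 291 in BMI, or 196 and 157 CPM, and it was more frequent in DSE in 3 glands and in BMI in 2. The 2 methods thus differed by a wide margin for this member.

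More transcripts than genes were called, but as shares of those tested the calls were alike, at 1.33% and 1.28%. The 861 called transcripts came from 692 genes, and in 192 of these the gene's sum was called as well. In 631 cases the transcript belonged to a gene whose sum was not called. Of the 124 genes with at least 2 called transcripts, 76 had called transcripts in opposite directions, and 69 of these had no call for the sum. Called shares were 1.07% for Ensembl transcripts, 1.23% for new combinations of known splice sites and 1.52% for transcripts with a new splice site, against 1.33% for all.

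PRRC2B, an RNA-binding protein that promotes translation, had the most opposed pair. The Ensembl transcript ENSSSCT00000006285 was at 2.92 to 35.9 TPM in DSE and at 0 to 1.11 TPM in BMI (difference 3.77 ± 0.28, adjusted p = 4.97e-10). The Iso-seq-derived PB.2174.143 was listed at 0 in all 15 DSE libraries and at 7.79 to 40.9 TPM in BMI (difference -4.23 ± 0.18, adjusted p = 1.21e-15). No gland overlapped for either. Over the tested transcripts with either splice form, the longer exon took 62.1 to 86.5% of the TPM in DSE and 0 to 4.39% in BMI. The pair differed in introns at a single place, within the coding region on chromosome 1, where the intron began at base 271400009 in the first and at 271399997 in the second, and both ended at 271402413. The exon end and the intron start of the reference (chr1:271399967-271400038, plus strand) are shown because the pair differs here. Capitals mark the 12 bases that are exon in the Ensembl transcript alone.
PRRC2B: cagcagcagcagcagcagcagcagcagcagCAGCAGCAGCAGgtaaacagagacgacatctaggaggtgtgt
The 12 bases are 4 units of a CAG run, and the intron of the Ensembl transcript begins with the usual GT behind it. The intron of PB.2174.143, as placed on the reference, begins with CA. That isoform rests on 2 full-length reads, both from BMI.

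TRAPPC4, a subunit of the complex that tethers transport vesicles, had an isoform found mainly in BMI whose ends are of the usual kind. PB.19793.80 was listed at 0 in 14 of 15 DSE libraries, with 9.33 TPM in the other, and was at 5.79 to 36.9 TPM in BMI (difference -3.87 ± 0.25, adjusted p = 2.9e-11). It was the only one of the gene's tested transcripts with an intron from 46242392 to 46242866 of chromosome 9, whereas 5 others began that intron at 46242704. Both places begin with GT, in capitals in the 2 stretches of the plus strand, chr9:46242362-46242411 and chr9:46242674-46242723.
PB.19793.80: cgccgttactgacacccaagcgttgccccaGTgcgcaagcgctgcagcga
Other transcripts: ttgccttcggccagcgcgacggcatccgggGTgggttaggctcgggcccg
The isoform had 3 full-length reads, all from BMI. The sum over TRAPPC4 was not called.

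MANSC1, a membrane protein, had PB.14720.4 at 0 in 14 of 15 DSE libraries and at 0.973 to 73.2 TPM in BMI, and no gland overlapped. Iso-seq gave 0 reads of it in DSE and 88 in BMI, of which 78 came from BG. Its partner PB.14720.1 was at 2.43 to 66.0 TPM in DSE. In BMI it was at 0 in every library numbered 2 or 3 and at 1.64 to 17.0 TPM in all 5 libraries numbered 1. A breed mean therefore hid a split among the BMI libraries, and with 1 value per breed and number the higher transcript lost its call (limma, adjusted p = 0.229) while PB.14720.4 kept it (adjusted p = 0.000777).

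SFRP1, a secreted antagonist of Wnt signalling, had PB.8685.3 at 0 in all DSE libraries and at 1.08 to 55.3 TPM in BMI, and PB.8685.4 at 0 to 154 TPM in DSE and 0 to 7.28 TPM in BMI. The pair differed by a gap of 28 bases outside the coding region. SURF4, a receptor for cargo leaving the endoplasmic reticulum, had PB.2185.1 at 58.9 to 174 TPM in DSE and 6.5 to 23.6 TPM in BMI. PB.2185.12, which lacks 7 bases outside the coding region, was at 73.4 to 206 TPM in BMI. In DSE it was at 17.7 to 51.2 TPM in the libraries numbered 2 and 3 and at or under 1.4 TPM in all 5 numbered 1. Iso-seq did not share these directions for SURF4. PB.2185.12 had 180 full-length reads in DSE and 60 in BMI, 59 of the latter from PG, and PB.2185.1 had 590 and 1006, or 367 and 541 CPM.

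ANKRD10 had ENSSSCT00000051194 at 2.84 to 33.3 TPM in DSE and at 0 in all BMI libraries, a transcript with a gap of 29 bases outside the coding region. Its partner PB.3292.9 was at 1.4 to 33.4 TPM in BMI. In DSE it was at 0 in all testis libraries and in all 5 numbered 3, and at 1.77 to 14.5 TPM in the remaining 8. With 1 value per breed and number, PB.2185.12 of SURF4 and PB.3292.9 lost their calls (limma, adjusted p = 0.371 and 0.252). CCN1, a secreted matrix protein, had PB.14034.7 at 0 in every DSE library and at 1.31 to 324 TPM in BMI (difference -4.20 ± 0.58, adjusted p = 3.99e-05), although Iso-seq held 48 reads of it in DSE and 188 in BMI. CYB561, an electron carrier of secretory vesicle membranes, had PB.3533.170 at 3.48 to 65.4 TPM in DSE and at most 0.208 TPM in BMI (difference 3.43 ± 0.22, adjusted p = 2.01e-11), with 1 full-length read in each breed. Zeros in a table of TPM can also be failed estimates, so they are given as listed.

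**Figure D3:**
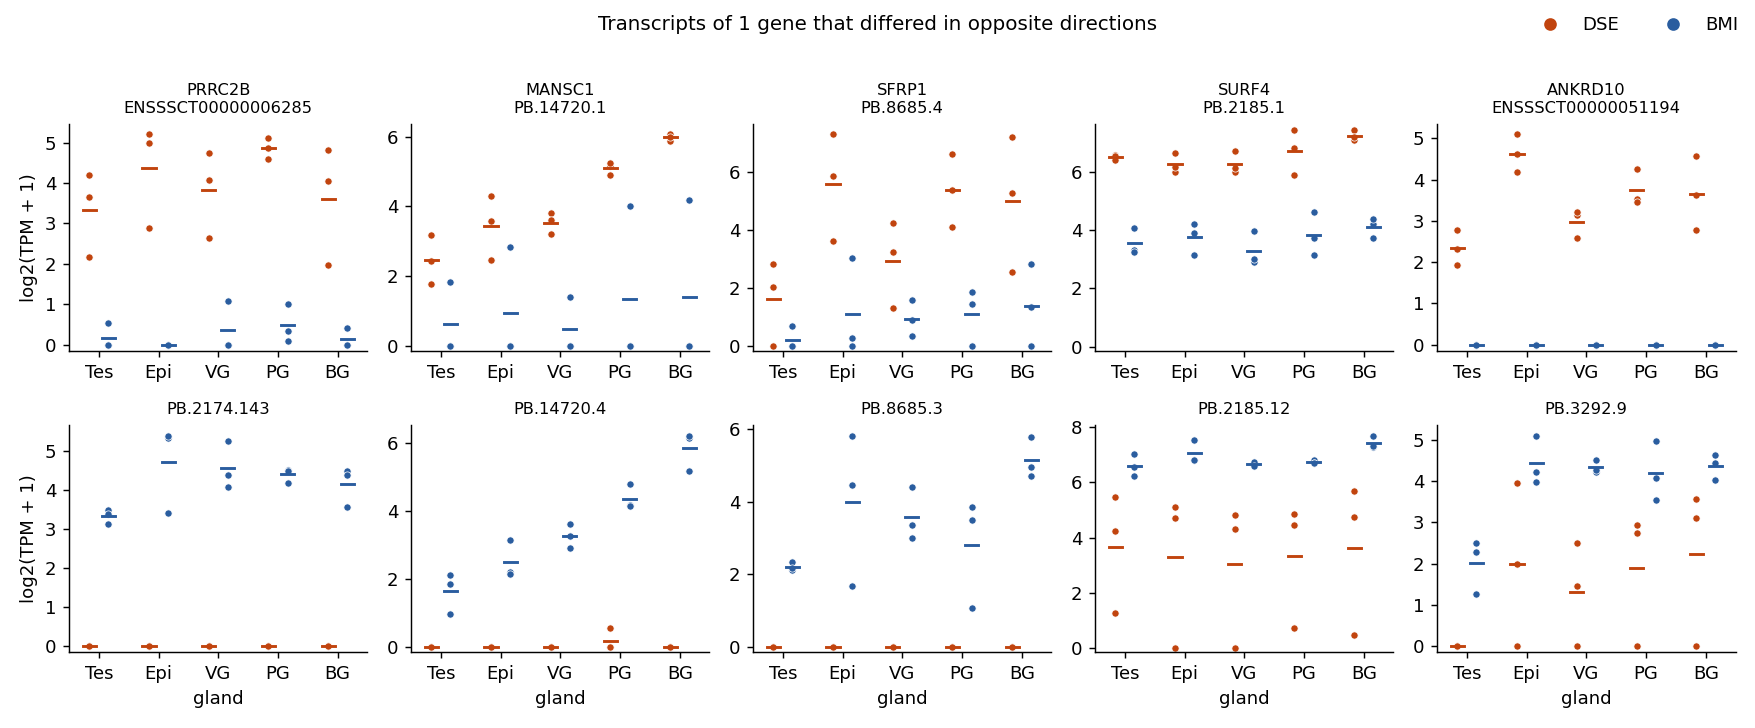
Levels, as log2(TPM + 1), of the transcript higher in DSE (upper row) and the transcript lower in DSE (lower row) of the 5 genes with the largest opposed pair, for DSE (orange) and BMI (blue) libraries, with bars for the means of 3. Points of a single library number stand apart from the others of their breed in all 5 glands for MANSC1 PB.14720.1 and SURF4 PB.2185.12.

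Libraries that share a breed and number stood together at such transcripts. In 47 of 64661 tested transcripts (0.0727%), the libraries of a single number lay at least 1 log2 unit beyond both others of their breed, on the same side, in all 5 glands. Of these 47, 22 were among the 861 called transcripts (2.56% of them), 21 of them through DSE numbers and 1 through a BMI number. They include transcripts of ATF6B, UROS, HBS1L, GPAM and TAF1B. For such members the 15 libraries of a breed are not 15 separate observations, and the counts with 3 values per breed are given above for this reason. Whether libraries of 1 number came from the same boar is not stated. If they did, the same limit holds for every member, and the limma p-values from 15 libraries per breed may be too small.

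How the introns of the members read in the reference was described next. Over tested transcripts with an intron, 14.3% were counted as having at least 1 intron whose ends are not GT-AG, GC-AG or AT-AC in Sscrofa11.1. Bases were read only on the 20 numbered and sex chromosomes. Every intron elsewhere, as on unplaced scaffolds, was counted as having such ends. On unplaced scaffolds 6.87% of genes with a tested transcript had a called one, beside 1.57 to 7.8% per autosome. The shares given here can therefore be too high, by an amount not measured. Among called transcripts the share was 20.4% (173 of 847), and among those with an absolute difference of at least 1 it was 27.4% (82 of 299). For transcripts with a new splice site, 2.74% of those with such an end were called, against 1.30% of those without. For Ensembl transcripts the order was the other way, 0.863% against 1.09%. Of the 76 opposed pairs, 32 differed by an intron of this kind, as did 8 of the 10 and 11 of the 20 largest. An apparent intron can be a stretch that the sequenced animal lacks, and which of these introns are splice events was not tested.

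Iso-seq gave a second readout with 1 library per breed and gland. Its RNA may come from the same boars as the RNA-seq, so a match in direction need not hold for other animals. Of the 861 called transcripts, 231 had at least 10 full-length reads, and in 198 of them (85.7%) the CPM over the 5 glands differed in the same direction as RNA-seq. Over all tested transcripts with as many reads, the directions matched in 57.5% of 18905. For genes the shares were 80.2% of 126 called and 56.8% of 12778 tested. The Iso-seq isoforms were partly defined from these reads, and the RNA-seq transcripts were built with them. With edgeR's quasi-likelihood test on the full-length counts, 2 of 4666 isoforms were called (0.0429%) and 0 of 5199 gene sums (0.0%), while 160 and 183 had an unadjusted p below 0.05 (3.43% and 3.52%), and DESeq2 called 11 isoforms and 10 genes. These fits kept features that passed edgeR's default filter on low counts (filterByExpr), and 25 of the member genes did. None passed the adjusted p, 6 had an unadjusted p below 0.05, and 23 (92.0%) ran in the RNA-seq direction. Of the 24 member transcripts that passed the filter, none was called either, 5 had an unadjusted p below 0.05, and 18 (75.0%) ran in the RNA-seq direction. The 2 called isoforms, of PTTG1IP and EGR1, were lower in DSE and were no members by RNA-seq.

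**Figure D4:**
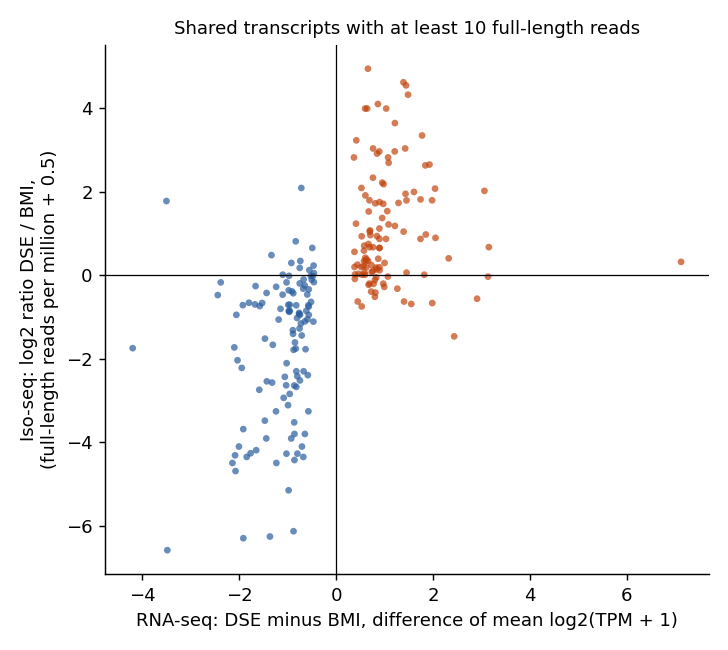
RNA-seq difference (horizontal, DSE minus BMI of mean log2(TPM + 1)) against the Iso-seq log2 ratio of full-length CPM plus 0.5 (vertical) for the 231 called transcripts with at least 10 reads; orange is higher and blue lower in DSE by RNA-seq. The point at 7.12 on the horizontal axis is PB.17407.28, whose Iso-seq ratio lies near 0.

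The members were spread over the genome. Every chromosome held some, from 0.488% of the tested genes on chromosome 1 (8 of 1638) to 2.26% on chromosome 10 (11 of 486) among the autosomes, and 0.58% on X. Unplaced scaffolds had 15 of 454 (3.3%). Chromosome Y had 2 of 47 and the mitochondrial genome 1 of 16, counts too small to rank.

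**Figure D5:**
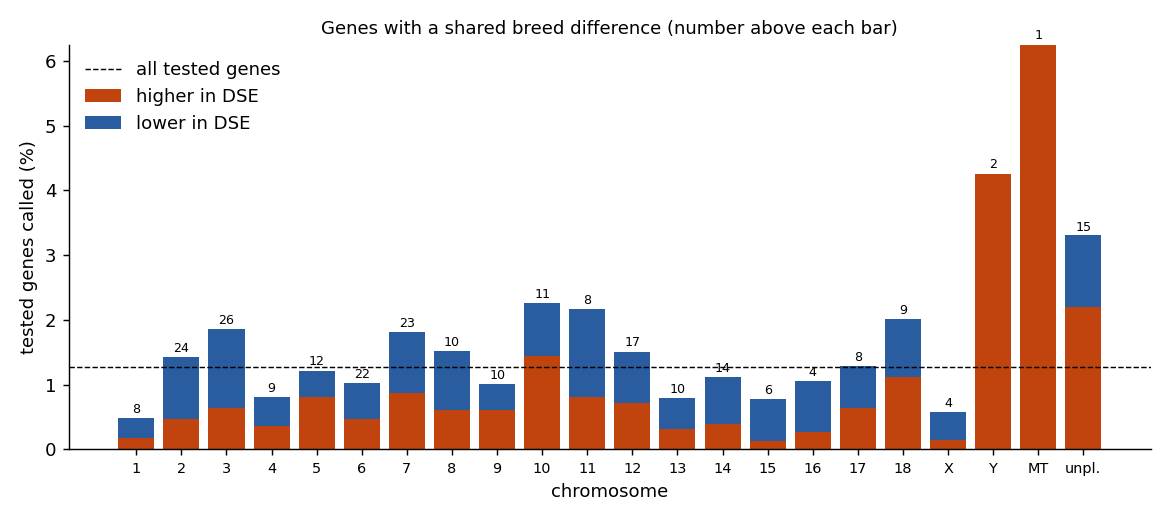
Share of tested genes (vertical axis, %) with a called breed difference of 1 sign in all 5 glands by chromosome, divided into higher (orange) and lower (blue) in DSE; numbers above bars are called genes and the dashed line is the share over all genes, 1.28%. Chromosome 1 lies lowest at 0.488% and chromosome 10 highest among the autosomes at 2.26%; unpl. stands for unplaced scaffolds.

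Neighbouring members were more frequent than for tested genes in general. Of the called genes, 122 of 253 (48.2%) had another called gene within 1 Mb, counted between gene midpoints, against 29.4% of all tested genes. Leaving out neighbours that overlap, which can share reads, the shares were 46.6% and 28.1%. At 100 kb they were 11.9% and 5.11%. Called genes had a median of 31 other tested genes within 1 Mb and all tested genes one of 24, and the part of this in the shares was not tested. Of 16 adjacent pairs of called genes within 100 kb that do not overlap, 12 had the same direction, as had 30 of 53 pairs from 100 to 1000 kb apart and 64 of 143 farther apart.

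In windows of 1 Mb, 10 held at least 3 called genes, 25 held 2 and 167 held 1, while 2072 held none. Counting overlapping called genes once left 6 such windows, and asking for an absolute difference of at least 1 left 1. The 3 windows with 5 called genes each were on chromosomes 2, 6 and 7. On chromosome 2, from 142000001 to 143000000, 5 of 43 tested genes were called. Of these, 3 lie on RefSeq protocadherin beta genes, cell adhesion proteins encoded in a tandem array, and were higher in DSE. ENSSSCG00000036516 was at 0.85 to 3.82 TPM in DSE and 0 to 0.744 TPM in BMI (difference 1.34 ± 0.11, adjusted p = 1.37e-09), ENSSSCG00000053951 differed by 0.82 and ENSSSCG00000055853 by 0.58. The unannotated novelGene_2154 was also higher (0.96), and DND1, which protects germ cell transcripts from microRNA repression, was lower (-0.86). The array's members are similar in sequence, so the split of reads among them is uncertain.

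On chromosome 6, from 47000001 to 48000000, 5 of 42 tested genes were called, with FBXO17 higher (0.95) and the others lower. SARS2, the mitochondrial seryl-tRNA synthetase next to FBXO17, differed by -0.47, NCCRP1 by -1.04, a gene on RefSeq LGALS7, a galectin of stratified epithelia, by -0.82, and an antisense gene by -0.50. On chromosome 7, from 22000001 to 23000000, all 5 of 37 were class I models of the histocompatibility complex or their antisense gene, 3 higher and 2 lower in DSE, and they overlap each other. The sum of class I signal can thus not be read from any single model. Of the windows with 3 called genes, that on chromosome 1 (201000001 to 202000000) had 22 tested genes, of which 3 were called, all of them interferon alpha genes, antiviral cytokines, and higher in DSE. They were IFN-ALPHA-8 (0.60), ENSSSCG00000059082 (0.99) and ENSSSCG00000058490 (1.33), with medians of 1.98 to 3.78 TPM in DSE and 0.45 to 1.24 TPM in BMI, and they too are near-identical copies.

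In the lists for pathways, 16 of 180 tested genes of 10 lists had 1 sign in all 5 glands, 8.89% beside 6.99% of all genes. Called were 2 that were higher and 1 that was lower in DSE, 1.67% together beside 1.28% of all genes. CYP1A1, a xenobiotic-oxidising enzyme, was higher by 0.56 ± 0.13 (adjusted p = 0.0159), CYP2E1, another cytochrome P450, differed by -0.42 ± 0.11 (adjusted p = 0.0481), and ND6 is described above. The 28 interferon-stimulated genes, 14 antigen presentation genes, 18 clock genes, 14 glucocorticoid response genes, 22 immediate early and heat shock genes, 20 genes of fat and cholesterol metabolism, 15 of the growth hormone and IGF axis and 12 of androgen response had no call. By sign alone, 4 of the 20 genes of fat and cholesterol metabolism had a positive difference in all glands (5 with size factors), as had 3 of the 13 mitochondrially encoded genes (2 with size factors). The median difference of the interferon-stimulated genes was 0.12, beside -0.03 for all genes, but by gland it ran from -1.01 in VG to 0.64 in BG.

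Markers of other cell types had no call in any of 12 lists with 80 tested genes, beside 1.28% of all genes, and 9 of the 80 (11.2%, beside 6.99%) had 1 sign in all glands. Their summed levels differed in some glands. On the log2 scale of the summed level, the smooth muscle list differed by 2.12 in PG, 0.70 in Epi, 0.49 in Tes, 0.01 in BG and -0.07 in VG. The median difference of its 8 genes was 0.58, and 1 of the 8 was higher in all 5 glands, or 3 with size factors. The skeletal muscle sum differed by 2.44 in VG, where the median of its 5 tested genes was 0, and by 1.48 in PG and 1.09 in BG. The fibroblast sum differed by -1.68 in VG and by 0.93 in PG. Other large differences were 1.31 for endothelial cells in Tes, -1.28 for macrophages in VG and 1.21 for T cells in PG. Adipocytes differed by -1.27 in BG and spermatids by -1.14 in Epi. The sign of each of these sums changed between glands. Of the 9 spermatid markers 2 were lower and 0 higher in all glands, or 3 and 0 with size factors. Across all libraries the smooth muscle sum was 189 to 24453 TPM in DSE and 168 to 15253 TPM in BMI, and the fibroblast sum was 116 to 3697 and 160 to 8714 TPM. The erythroid sum, mainly of blood left in tissue, was higher in DSE in all 5 glands, by 0.02 to 0.39. Of its 5 tested genes 1 was higher and 2 were lower in all glands, with a median difference of -0.16, whereas with size factors 0 were higher or lower in all glands and the median was 0.02. The part of these cell types in the results was not tested.

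Cytosolic ribosomal protein genes were set apart after their values were seen. Of 68 tested, 28 had a positive difference in all 5 glands and 0 a negative one, where 6.99% of all genes had 1 sign. Of the 68, 5 were called (7.35%, beside 1.28% of all genes), and the median difference was 0.22 beside -0.03 for all genes. RPL6 had a median of 978 TPM in BMI and 1536 TPM in DSE (0.45 ± 0.11, adjusted p = 0.0209). The others called were RPL27 (0.44), RPS26 (0.43), RPL27A (0.38) and RPSA (0.34). Iso-seq ran the other way for RPL6, with 34 full-length reads in DSE and 56 in BMI, or 21.1 and 30.1 CPM. It also did so for RPL27 (6.22 CPM in DSE and 8.61 in BMI), RPS26 (3.73 and 5.92) and RPL27A (9.32 and 9.68). RPSA was higher in DSE there (77.1 and 69.9 CPM). With size factors 29 had a positive difference in all glands and the median stayed at 0.22, but the gland medians moved, from 0.05 to 0.57 in VG and from 0.46 to 0.01 in PG.

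Close to the threshold, ENSSSCG00000056325 (adjusted p = 0.0497) and ENSSSCG00000039712 (0.0499) were just inside. The read-through model of ENSSSCG00000007667 (adjusted p = 0.0506) had a single sign in all glands and fell just outside. The size of the breed difference varied with gland for 14 of the 253 called genes and 35 of the 861 called transcripts (limma interaction, adjusted p below 0.05), while 2.6% of all tested genes and 2.38% of all tested transcripts had such a call.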

How the data were processed

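The glands of BMI and DSE boars were profiled. The authors estimated TPM per transcript with Salmon 1.9.0 against Ensembl and Iso-seq transcripts placed on Sscrofa11.1 and deposited them, 3 libraries per breed and gland; they also deposited full-length read counts per isoform for 10 Iso-seq libraries, and coordinates as other values in a GTF. STAR 2.7.10a is named in the submitters' processing notes. Here TPM were summed per gene, filtered (at least 1 TPM in at least 3 libraries), taken as log2(TPM + 1) and fitted with limma 3.58.1 (gland as block, breed as term, Benjamini-Hochberg over all tested features). Full-length counts were tested with edgeR 4.0.16 (DESeq2 1.42.0 as alternative). Introns and sequences were read from the RefSeq Sscrofa11.1 genome, where 98.8% of 384406 annotated introns of at least 1000 bases had usual ends. Unnamed genes were matched to RefSeq genes on the same strand over at least 50% of the shorter. Named genes were the 12 highest and 12 lowest called with a symbol, 5 transcripts each way from genes with a symbol whose sum was not called, the 5 most opposed isoform pairs of genes with a symbol, and the 3 densest windows; the window on chromosome 1 and PB.17407.28 were added after their values were seen. Members, lists and tests were chosen with earlier results of these data known. Scripts were tested on simulated data. The same replicate numbers in different glands were not taken as pairs in the main fit. Deviations of same-numbered libraries of a breed correlated on average at 0.02 to 0.08 over genes, and not every pair exceeded 0.1. Libraries of other numbers and glands within a breed correlated on average at -0.02. Such correlations across unlike organs cannot show whether libraries of a number share a boar.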

Additional observations from a re-analysis of the deposited data

Results flagged for a closer look

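The breed difference of ANKRD55 varied with the gland (limma breed by gland interaction, adjusted p = 0.0352), from -0.09 in VG to -2.99 in PG, with the sign the same in 5 of 5 glands. The transcript ENSSSCT00000051194 of ANKRD10 had the same flag (adjusted p = 0.0316), from 2.35 in testis to 4.63 in Epi. In BMI it was listed at 0 in every library, so its difference follows the level in DSE.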

How the results depend on the processing

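The main counts were 253 genes and 861 transcripts. With 1 value per breed and number (3 against 3) 37 genes and 138 transcripts were called, of which 36 and 134 were among the main calls. Asking for 1 TPM or more in 15 libraries or more, 148 genes and 405 transcripts were called, with size factors 405 genes, with a log2 difference of at least 1 they were 61 and 304, and with groups apart in all 5 glands 36 and 120. Leaving out libraries, singly or all of 1 number, gave 72 to 300 genes and 319 to 941 transcripts, and the highest counts came without DSE_Epi replicate 1. Without DSE_VG replicate 1 or BMI_VG replicate 2 the share of called genes that were higher in DSE was 51.3% and 55.4% rather than 45.5%. It was 50.3% without DSE_Epi replicate 1 and 54.8% without all libraries numbered 1. The remaining alternatives (a pseudocount of 0.1, no filter, a trend in eBayes, duplicateCorrelation, no testis, no low-integrity libraries) kept both counts within 1.5 times. With the replicate block 266 genes and 878 transcripts were called, and NCCRP1 lost its call (adjusted p = 0.0505). What libraries of the same number share is not given in the sources used here. The correlations of deviations did not exceed 0.1 for every pair, although single transcripts set a number apart in all glands.

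The share of tested features with 1 sign in all glands was 6.53% of genes and 8.23% of transcripts under the filter of 15 libraries, and 10.8% and 8.82% with size factors. In Iso-seq, beside 2 isoforms and 0 gene sums, 84 isoforms and 52 gene sums were called with a minimum of 10 reads, 11 and 10 by DESeq2, and 1 to 15 isoforms and 0 to 5 gene sums when a library was left out. The highest of these were without BMI_PG or DSE_PG (15 and 13 isoforms, 5 and 4 gene sums). Windows with at least 3 called genes numbered 6 at 500 kb, 6 with overlapping genes counted once and 1 at a log2 difference of at least 1. The cause of these changes was not tested.

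Each of the 37 named genes and transcripts kept its direction in every fit run. With a pseudocount of 0.1 or size factors all 37 kept the call, with 3 values per breed 17 did and without the low-integrity libraries 30 did. Leaving out single libraries removed the call of 6 in some fits: 5_8S_rRNA and NCCRP1 in 23 of 30, FAM174B in 15, SORCS2 in 14, WNT5B in 11 and RELL1 in 5, with adjusted p up to 0.0888.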
